A study of Homo sapiens with 9 samples.

Results

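The feedback inhibitors of mitogen-activated protein kinase (MAPK) signalling were examined as 10 genes, chosen by name as transcriptional readouts of ERK, JNK and p38 activity among the 58735 genes listed for each library. They comprise 8 dual-specificity phosphatases (DUSP1, DUSP4, DUSP5, DUSP6, DUSP7, DUSP8, DUSP10 and DUSP16) and 2 Sprouty genes (SPRY2 and SPRY4). RNA was sequenced from MDA-MB-231, a triple-negative line of breast cancer cells, in 3 groups of 3 libraries each. Vehicle cells were treated with DMSO. Erastin-R cells had survived treatment with erastin, an inhibitor of the cystine transporter system xc-, and RSL3-R cells had survived treatment with RSL3, an inhibitor of the lipid peroxide-reducing enzyme GPX4. Both compounds induce ferroptosis, and the comparison asks which genes accompany survival of these treatments. Exposure to a compound, its increased dose and survival of it go together in these groups and cannot be told apart. All groups are the same cell line, and the sources used here do not say whether the libraries came from separate cultures, so that the p-values measure only the spread between these libraries.

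Dual-specificity MAPK phosphatases remove the activating phosphates from both the threonine and the tyrosine of ERK, JNK or p38. Several of them are transcribed in response to the same kinases that they switch off, which makes their mRNA a readout of pathway activity as well as a brake on it. Sprouty proteins act further upstream and restrain the passage of receptor tyrosine kinase signals to RAS and RAF.

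The promoters of 4 genes are shown because they represent the contrasting patterns described below: DUSP1 and DUSP8 were highest in erastin-R cells, and DUSP6 and SPRY4 were highest in RSL3-R cells. Of the 10 genes, 8 matched an entry in the table of RefSeq promoters used here (GRCh38.p14). DUSP4 and DUSP5 were not matched. Each sequence runs 5′ to 3′ on the minus strand, from 250 bases before to 50 bases after the RefSeq gene start. The windows lie at chr5:172771146-172771445 (DUSP1), chr11:1572222-1572521 (DUSP8), chr12:89352452-89352751 (DUSP6) and chr5:142324198-142324497 (SPRY4). Capitals mark the cyclic AMP response element TGACGTCA, its half-site TGACG, the E-box CACGTG and the ETS core CGGAAG on either strand. In DUSP1 the run of capitals that ends in the E-box also holds a half-site on the other strand.
DUSP1: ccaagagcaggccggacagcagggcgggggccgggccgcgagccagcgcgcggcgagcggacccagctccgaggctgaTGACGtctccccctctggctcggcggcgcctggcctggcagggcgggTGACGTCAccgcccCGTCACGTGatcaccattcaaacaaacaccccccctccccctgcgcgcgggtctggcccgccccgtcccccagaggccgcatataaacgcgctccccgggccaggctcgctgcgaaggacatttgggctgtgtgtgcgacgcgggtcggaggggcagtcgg
DUSP8: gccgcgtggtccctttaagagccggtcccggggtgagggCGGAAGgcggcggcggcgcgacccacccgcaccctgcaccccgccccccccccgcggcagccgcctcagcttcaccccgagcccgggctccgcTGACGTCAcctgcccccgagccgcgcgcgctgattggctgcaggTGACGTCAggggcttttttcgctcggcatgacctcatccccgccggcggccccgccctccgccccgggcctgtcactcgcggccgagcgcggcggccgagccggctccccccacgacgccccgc
DUSP6: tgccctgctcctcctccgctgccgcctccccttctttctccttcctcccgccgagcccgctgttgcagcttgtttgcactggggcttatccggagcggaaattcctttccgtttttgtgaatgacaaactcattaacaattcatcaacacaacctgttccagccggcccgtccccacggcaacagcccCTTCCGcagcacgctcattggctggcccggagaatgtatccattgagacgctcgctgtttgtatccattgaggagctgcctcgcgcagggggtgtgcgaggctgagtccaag
SPRY4: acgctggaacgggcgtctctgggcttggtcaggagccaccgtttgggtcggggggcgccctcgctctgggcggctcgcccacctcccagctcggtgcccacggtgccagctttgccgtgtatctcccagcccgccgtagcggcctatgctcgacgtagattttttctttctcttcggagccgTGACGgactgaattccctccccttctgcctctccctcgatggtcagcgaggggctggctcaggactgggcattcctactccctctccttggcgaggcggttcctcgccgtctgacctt

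The full cyclic AMP response element occurred 1 time in the window of DUSP1 and 2 times in that of DUSP8, and in none of the other 6 windows examined. The windows without it include those of DUSP7, DUSP16 and SPRY2, which also had their highest mean level in erastin-R cells. DUSP5, also highest in erastin-R cells, had no window to examine. Whether the element has a part in these levels was not tested. The full element was found in 1.848% of the 35116 RefSeq promoter windows of the same length. The half-site, which every full element contains, was found in DUSP1, DUSP8, SPRY2 and SPRY4, and in 24.553% of all windows. The E-box was found in DUSP1 alone among the 8 and in 7.256% of all windows. The ETS core was found in DUSP6 and DUSP8, and in 19.464% of all windows. The AP-1 site TGACTCA (4.949% of all windows), the ATF4 element TGATGCAA (0.866%) and the CArG box (1.293%) were in none of the 8. These matches are letters in a window and were not tested for binding. The RefSeq start coincided with the gene start of the annotation used for counting in DUSP1, and lay 351 bases from it in DUSP8, 770 bases in DUSP6 and 2208 bases in SPRY4.

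Total counts ranged from 15405102 to 17273464 per library, and all 10 genes passed the filter on low counts. The lowest count of any of them in any library was 43, in DUSP8. Libraries of 1 group correlated at 0.985 to 0.991 (Pearson's r of log2 CPM across genes) and libraries of different groups at 0.957 to 0.971. Erastin-R replicate 1 stood apart from the other 2 erastin-R libraries: the chi-square of its counts against theirs was 24.4 and 25.1 per gene, whereas the other pairs of the same group ranged from 2.47 to 5.48. Results that involve erastin-R cells are therefore also given without it where they changed. The share of counts from mitochondrial DNA was 7.97% to 8.93% in vehicle, 5.55% to 7.95% in erastin-R and 9.52% to 10.2% in RSL3-R libraries. The 5 genes that mark MDA-MB-231 (VIM, CD44, AXL, CAV1 and MSN) were all present and summed to 4494 to 4939 CPM in every library, although single members moved. CAV1 was lower in both treated groups (677 CPM in vehicle, 308 CPM in erastin-R, 374 CPM in RSL3-R), CD44 was also called lower in both and AXL higher in both. The 5 genes listed as low or absent in this line summed to 65.4 to 99.99 CPM, nearly all of it ERBB2, which was not absent (59.8 to 96.9 CPM). ESR1 and PGR stayed under 1 CPM in every library, EPCAM lay at 0.954 to 2.86 CPM, and CDH1 was called higher in RSL3-R cells (3.44 CPM, beside 1.14 CPM in vehicle). The 9 markers of leukocytes, endothelium and fibroblasts summed to 18.1 to 19.3 CPM in vehicle, 8.21 to 9.91 in erastin-R and 24.3 to 27.7 in RSL3-R libraries, mostly from PECAM1 and PDGFRB. PECAM1 was at 9.99 CPM in vehicle, 1.79 CPM in erastin-R and 12.8 CPM in RSL3-R cells. CD3E was at 0 in all erastin-R libraries and at most 0.247 CPM in any other. At low levels, PTPRC was called higher in RSL3-R cells (1.37 CPM, beside 0.424 CPM in vehicle). DCN was called lower in both treated groups (0.122 CPM in erastin-R and 0.209 CPM in RSL3-R, beside 0.934 CPM in vehicle). The part of the mitochondrial share and of all these markers in the results was not tested. In bulk RNA, fewer cells of a kind and less RNA per cell cannot be told apart.

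Most of the 10 genes were higher in both treated groups than in vehicle cells. In erastin-R cells 8 were higher and 0 lower at an adjusted p under 0.05 in edgeR's quasi-likelihood test, and 2 (DUSP4 and DUSP6) were not called. Across the 16188 genes tested, 27.1% were called higher and 26.8% lower. In RSL3-R cells 8 were higher, 1 (DUSP7) was lower and 1 (DUSP1) was not called, against 23.8% higher and 24.9% lower among all genes. The median log2 fold change of the 10 was 0.52 in the erastin-R comparison and 0.54 in the RSL3-R comparison, beside -0.0042 and 0.0052 over every gene in the test. The 3 vehicle libraries serve in both of these comparisons. Because the 10 genes were chosen with earlier results of these data known, these counts and medians are descriptions. They do not test the genes as a set against all genes.

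With a minimum log2 fold change of 1 added, DUSP1, DUSP5 and DUSP8 were called higher in erastin-R cells, where 6.7% of all genes were called higher and 6.66% lower. DUSP5 and DUSP8 were called higher in RSL3-R cells, where the shares were 6.02% and 4.08%. All 3 erastin-R libraries lay above all 3 vehicle libraries for 8 of the 10 genes, and the other 2 overlapped. The corresponding shares of all genes were 28.7% above and 29.1% below. All 3 RSL3-R libraries lay above the vehicle libraries for 9 genes and below them for 1, beside 30.4% above and 31.4% below among all genes.

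The treated groups also differed from each other. RSL3-R cells had 3 of the 10 genes higher (DUSP4, DUSP6 and SPRY4) and 6 lower (DUSP1, DUSP5, DUSP7, DUSP8, DUSP16 and SPRY2) than erastin-R cells, and DUSP10 was not called. The call of SPRY2 was lost in 13 of 15 alternatives. Of all genes tested, 22.3% were called higher and 26.9% lower. DUSP1 was the 1 gene called with the fold minimum, where 6.86% of all genes were called higher and 3.48% lower. The RSL3-R libraries lay above all erastin-R libraries for 3 genes and below them for 6, beside 25.6% and 29.5% of all genes. The median log2 fold change of the 10 was -0.27, and that of all genes was -0.024. Upper-quartile normalization moved the median gene of this comparison by 0.10 on the log2 scale and raised the share of called genes that were higher in RSL3-R cells from 45.4% to 58.9%; the 3 genes named as higher and 5 of the 6 named as lower kept their calls, SPRY2 lost its call and DUSP10 was called higher.

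**Figure D1:**
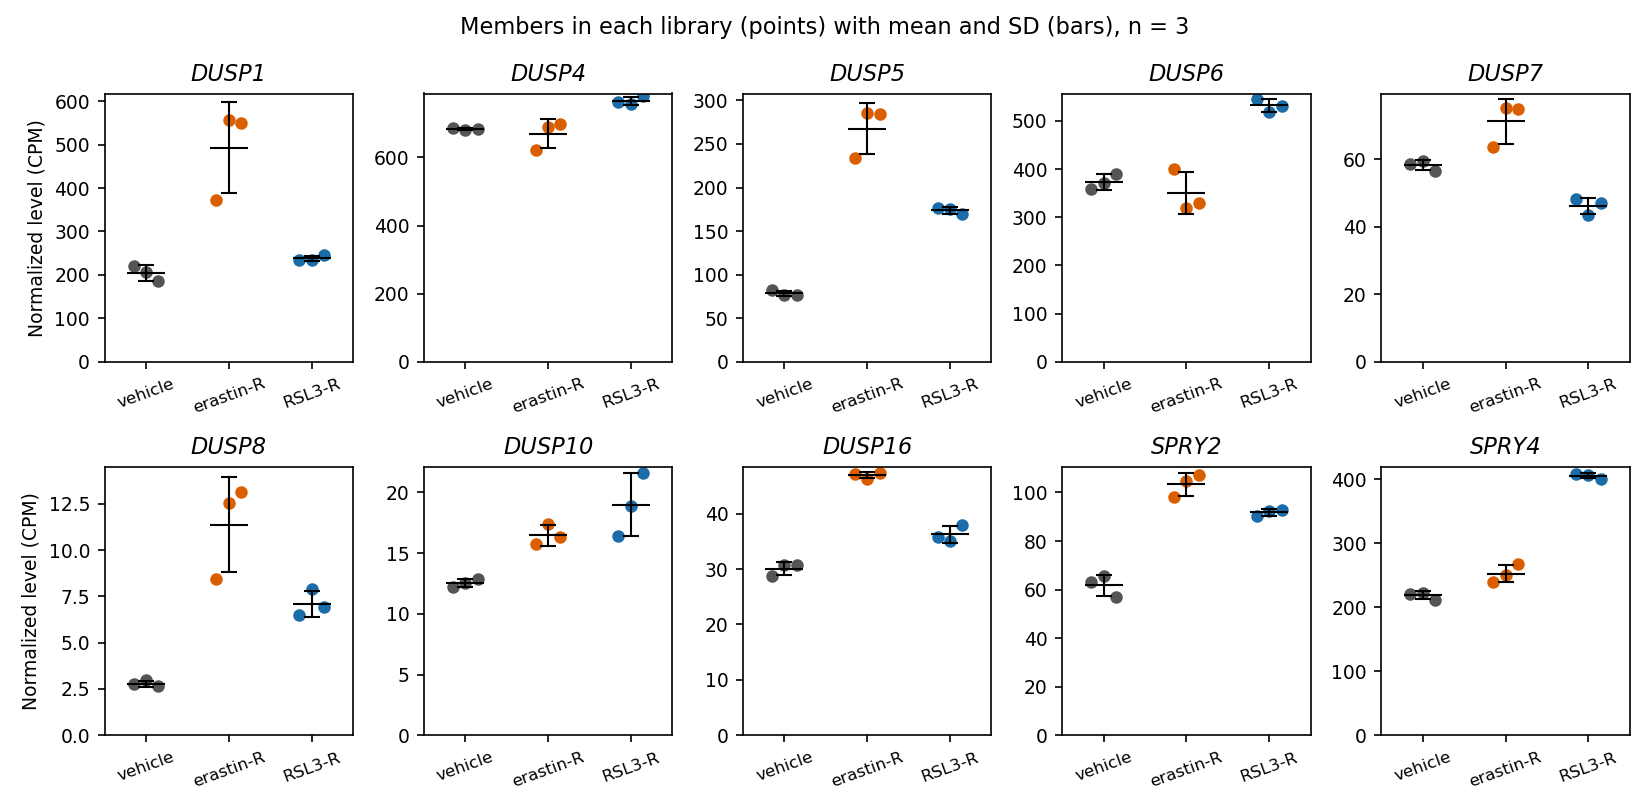
Level of each gene (CPM, linear axis from 0) in the 3 vehicle, 3 erastin-R and 3 RSL3-R libraries; points are libraries in replicate order from left to right, and bars are the mean and SD. DUSP1, DUSP5 and DUSP8 were highest in erastin-R cells, and DUSP6 and SPRY4 in RSL3-R cells.

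Among the nuclear phosphatases, DUSP1, DUSP4 and DUSP5 each showed a different pattern. DUSP1, an immediate early gene whose protein acts on p38, JNK and ERK, lies at chr5:172768090-172771195 (GRCh38, minus strand). It was measured at 221, 206 and 186 CPM in the vehicle libraries, at 373, 557 and 549 CPM in the erastin-R libraries and at 234, 235 and 245 CPM in the RSL3-R libraries. Every erastin-R library lay above every library of the other groups, with replicate 1 the lowest of the 3. DUSP1 was 2.41-fold higher in erastin-R than in vehicle cells (log2 fold change 1.27 ± 0.12, SE; adjusted p = 1.11e-06), and the log2 value was 1.43 without erastin-R replicate 1. The RSL3-R libraries lay just above the vehicle libraries, at 0.22 on the log2 scale (95% interval -0.04 to 0.47, adjusted p = 0.152). That difference was called in 3 of 15 alternatives, among them the fit without erastin-R replicate 1 (adjusted p = 3.40e-04). That fit leaves out no RSL3-R or vehicle library, but its estimate of spread is shared by all groups. In this comparison it called 9401 of 16619 genes, and the main fit 7879 of 16188. Why DUSP1 gained the call was not tested. Compared directly, DUSP1 was 2.07-fold lower in RSL3-R than in erastin-R cells (log2 fold change -1.05 ± 0.12, adjusted p = 9.37e-06).

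DUSP5, an inducible nuclear phosphatase specific for ERK, lies at chr10:110497838-110511544 (plus strand). Its levels were 82.0, 77.1 and 76.4 CPM in vehicle, 234, 285 and 284 CPM in erastin-R and 176, 175 and 170 CPM in RSL3-R libraries. The 3 groups did not overlap, and RSL3-R cells lay between the other groups. DUSP5 was 3.41-fold higher in erastin-R cells (log2 fold change 1.77 ± 0.08, adjusted p = 9.38e-10) and 2.21-fold higher in RSL3-R cells (1.15 ± 0.08, adjusted p = 3.88e-08) than in vehicle cells. It was 1.54-fold lower in RSL3-R than in erastin-R cells (-0.62 ± 0.07, adjusted p = 1.31e-05). The study displays DUSP5 among MAPK genes picked from these same libraries, so its direction is not independent evidence. In resistant lines that it generated, the study separately reports more phosphorylated ERK and, by qPCR, more mRNA of MAPK pathway genes.

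DUSP4, a nuclear phosphatase induced by ERK, was measured at 688, 679 and 683 CPM in vehicle, 621, 690 and 699 CPM in erastin-R and 764, 756 and 780 CPM in RSL3-R libraries. Vehicle and erastin-R libraries overlapped, and the RSL3-R libraries were higher than both. The log2 fold change in erastin-R cells was -0.03 (95% interval -0.15 to 0.09, adjusted p = 0.696). In RSL3-R cells DUSP4 was 1.12-fold higher than in vehicle cells (log2 fold change 0.17 ± 0.06, adjusted p = 0.0255), and 5 of 15 alternatives did not call that difference. It was 1.14-fold higher in RSL3-R than in erastin-R cells (0.19 ± 0.06, adjusted p = 0.0112).

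The cytoplasmic phosphatases of ERK, DUSP6 and DUSP7, moved in different directions. DUSP6, a canonical ERK feedback gene at chr12:89347232-89353271 (minus strand), was measured at 359, 370 and 391 CPM in vehicle, 400, 319 and 330 CPM in erastin-R and 545, 519 and 532 CPM in RSL3-R libraries. The RSL3-R libraries stood above all others, and erastin-R replicate 1 was the only erastin-R library above the vehicle libraries. DUSP6 was 1.43-fold higher in RSL3-R than in vehicle cells (log2 fold change 0.51 ± 0.08, adjusted p = 8.68e-05) and 1.52-fold higher than in erastin-R cells (0.60 ± 0.08, adjusted p = 2.39e-05). Erastin-R and vehicle cells differed by a log2 value of -0.09 (95% interval -0.26 to 0.07, adjusted p = 0.321). Without erastin-R replicate 1 that value was -0.20, which was called lower (adjusted p = 3.00e-04). More genes in general were called in that fit of erastin-R against vehicle, 9957 of 16619 beside 8735 of 16188 in the main fit. Why DUSP6 gained the call was not tested. An antisense gene, AC024909.2, covers 40.5% of the exon bases of DUSP6, and the strand setting of the counting is not given in the sources used here, so that reads in the shared bases cannot be assigned with certainty. AC024909.2 had 90 to 134 counts per library, beside 5011 to 9100 for DUSP6.

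DUSP7, at chr3:52048919-52056550 (minus strand), was called higher in erastin-R cells and lower in RSL3-R cells than in vehicle cells. Its levels were 58.6, 59.4 and 56.6 CPM in vehicle, 63.6, 75.0 and 74.9 CPM in erastin-R and 48.2, 43.6 and 46.9 CPM in RSL3-R libraries. The 3 groups did not overlap, with RSL3-R cells lowest. It was 1.22-fold higher in erastin-R cells (log2 fold change 0.29 ± 0.08, adjusted p = 0.00568) and 1.26-fold lower in RSL3-R cells (-0.33 ± 0.08, adjusted p = 0.00292). The direct difference between the treated groups was -0.62 ± 0.08 (adjusted p = 2.07e-05).

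All 3 phosphatases that prefer JNK and p38 were higher in both treated groups. DUSP8, at chr11:1554044-1571920 (minus strand), had the largest log2 fold change of the 10 genes against vehicle in each treated group. It was measured at 2.74, 2.96 and 2.65 CPM in vehicle, 8.46, 12.5 and 13.1 CPM in erastin-R and 6.51, 7.89 and 6.90 CPM in RSL3-R libraries. The 3 groups did not overlap. DUSP8 was 4.07-fold higher in erastin-R cells (log2 fold change 2.03 ± 0.19, adjusted p = 7.78e-07) and 2.54-fold higher in RSL3-R cells (1.35 ± 0.19, adjusted p = 5.49e-05), and 1.60-fold lower in RSL3-R than in erastin-R cells (-0.68 ± 0.17, adjusted p = 0.00385). These values rest on 43 to 48 counts in the vehicle libraries, 142 to 216 in the erastin-R libraries and 101 to 127 in the RSL3-R libraries. The pseudogene DUSP8P5 had 23 to 58 counts per library. No stretch of 50 bases or more of the longest DUSP8 transcript matched a transcript of another gene exactly.

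DUSP16, at chr12:12474210-12562383 (minus strand), encodes a JNK phosphatase that shuttles between nucleus and cytoplasm. It was measured at 28.7, 30.8 and 30.7 CPM in vehicle, 47.2, 46.3 and 47.3 CPM in erastin-R and 35.8, 35.0 and 37.99 CPM in RSL3-R libraries. The groups did not overlap, and RSL3-R cells were again intermediate. DUSP16 was 1.56-fold higher in erastin-R cells (log2 fold change 0.64 ± 0.07, adjusted p = 4.62e-06) and 1.21-fold higher in RSL3-R cells (0.27 ± 0.07, adjusted p = 0.00634), and 1.29-fold lower in RSL3-R than in erastin-R cells (-0.37 ± 0.07, adjusted p = 6.19e-04).

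DUSP10, at chr1:221701424-221742176 (minus strand), acts on JNK and p38. It was measured at 12.2, 12.5 and 12.9 CPM in vehicle, 15.7, 17.4 and 16.3 CPM in erastin-R and 16.4, 18.9 and 21.6 CPM in RSL3-R libraries. Both treated groups lay above vehicle and overlapped each other. DUSP10 was 1.31-fold higher in erastin-R cells (log2 fold change 0.39 ± 0.11, adjusted p = 0.00980) and 1.51-fold higher in RSL3-R cells (0.60 ± 0.11, adjusted p = 5.64e-04). The treated groups differed by 0.21 on the log2 scale (95% interval -0.03 to 0.44, adjusted p = 0.134).

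**Figure D2:**
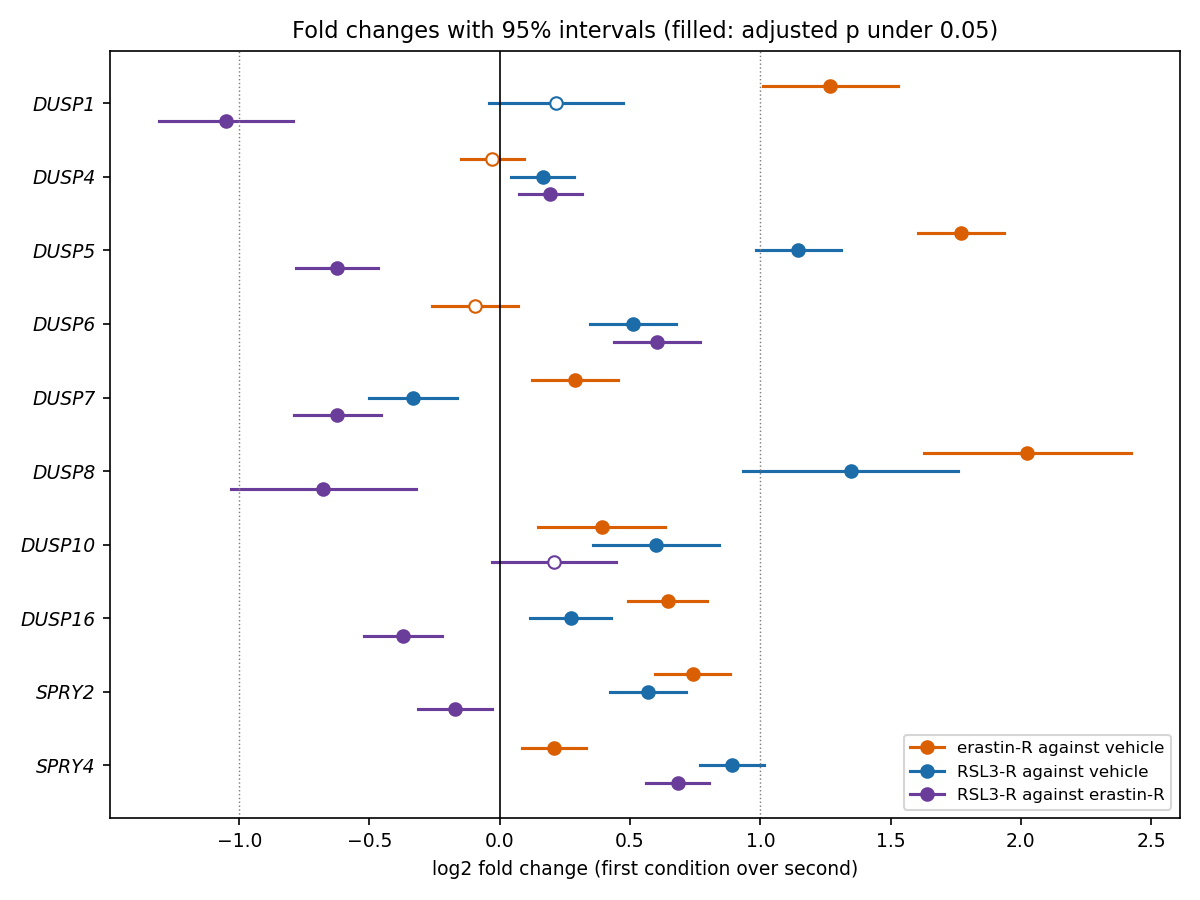
Log2 fold change of each gene (points) with its 95% interval (lines) in the 3 comparisons; filled points passed an adjusted p of 0.05 and dotted lines mark a log2 fold change of 1 in either direction. DUSP8 (2.03) and DUSP5 (1.77) had the largest values in erastin-R cells, and DUSP7 was called in both comparisons with vehicle, on opposite sides of 0.

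Both Sprouty genes were higher in both treated groups. SPRY4, at chr5:142310427-142326455 (minus strand), was measured at 221, 223 and 211 CPM in vehicle, 239, 251 and 267 CPM in erastin-R and 408, 406 and 400 CPM in RSL3-R libraries. The RSL3-R libraries stood well apart from the other 6, and the erastin-R libraries lay just above vehicle. SPRY4 was 1.85-fold higher in RSL3-R cells (log2 fold change 0.89 ± 0.06, adjusted p = 2.61e-08) and 1.16-fold higher in erastin-R cells (0.21 ± 0.06, adjusted p = 0.00667) than in vehicle cells. It was 1.61-fold higher in RSL3-R than in erastin-R cells (0.68 ± 0.06, adjusted p = 5.42e-07).

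SPRY2, at chr13:80335976-80340951 (minus strand), was measured at 63.1, 65.4 and 57.1 CPM in vehicle, 98.3, 105 and 107 CPM in erastin-R and 90.3, 92.4 and 92.7 CPM in RSL3-R libraries. Both treated groups lay far above vehicle. SPRY2 was 1.67-fold higher in erastin-R cells (log2 fold change 0.74 ± 0.07, adjusted p = 7.38e-07) and 1.48-fold higher in RSL3-R cells (0.57 ± 0.07, adjusted p = 1.03e-05). The direct difference of -0.17 ± 0.07 (adjusted p = 0.0455) was not called in 13 of 15 alternatives, with adjusted p between 0.00353 and 0.411 over all 15.

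Levels of different genes were compared per kilobase of exon (RPKM), with all exon bases of a gene as its length. That length was 2019 bases for DUSP1 and 7257 bases for DUSP4, whose longest transcript has 5537 bases. A shorter length would give DUSP4 a higher level, so its place relative to DUSP1 depends on the length used. In vehicle cells the highest levels were those of DUSP1 (101 ± 8.70 RPKM, SD, n = 3) and DUSP4 (94.2 ± 0.586 RPKM), whose library ranges overlapped, followed by DUSP6 (80.6 ± 3.49 RPKM). A gap separated these from SPRY4 (33.3 RPKM), DUSP5 (30.0 RPKM) and SPRY2 (20.4 RPKM), and DUSP8 was lowest (0.604 RPKM). In the vehicle order DUSP1 and DUSP4 were the only neighbours whose ranges overlapped. In erastin-R cells DUSP1 (244 ± 51.6 RPKM) stood above all others and DUSP5 (102 ± 11.1 RPKM) moved from the fifth to the second place, with ranges that overlapped between DUSP5 and DUSP4 and between DUSP4 and DUSP6. In RSL3-R cells DUSP1 (118 ± 2.97 RPKM) and DUSP6 (115 ± 2.78 RPKM) overlapped at the top, as did DUSP10 and DUSP16 near the bottom. The place of DUSP6 in each order is uncertain. An antisense gene shares 40.5% of its exon bases, and reads lost there would lower its level.

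The summed level of the 8 phosphatases was 327 ± 6.52 RPKM in vehicle, 543 ± 61.0 RPKM in erastin-R and 427 ± 5.39 RPKM in RSL3-R cells. DUSP1 made up 31.0% ± 2.06 of that sum in vehicle, 44.6% ± 4.80 in erastin-R and 27.6% ± 0.482 in RSL3-R libraries. The share of DUSP5 was 9.19% ± 0.195 in vehicle, 18.9% ± 0.0809 in erastin-R and 15.5% ± 0.481 in RSL3-R libraries. The share of DUSP4 was lower in both treated groups (erastin-R 17.1%, RSL3-R 24.7%) than in vehicle (28.8%), without overlap between the groups. These sums and shares depend on the gene lengths used and on the reads counted for DUSP6. They are descriptions of mRNA and were not tested.

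**Figure D3:**
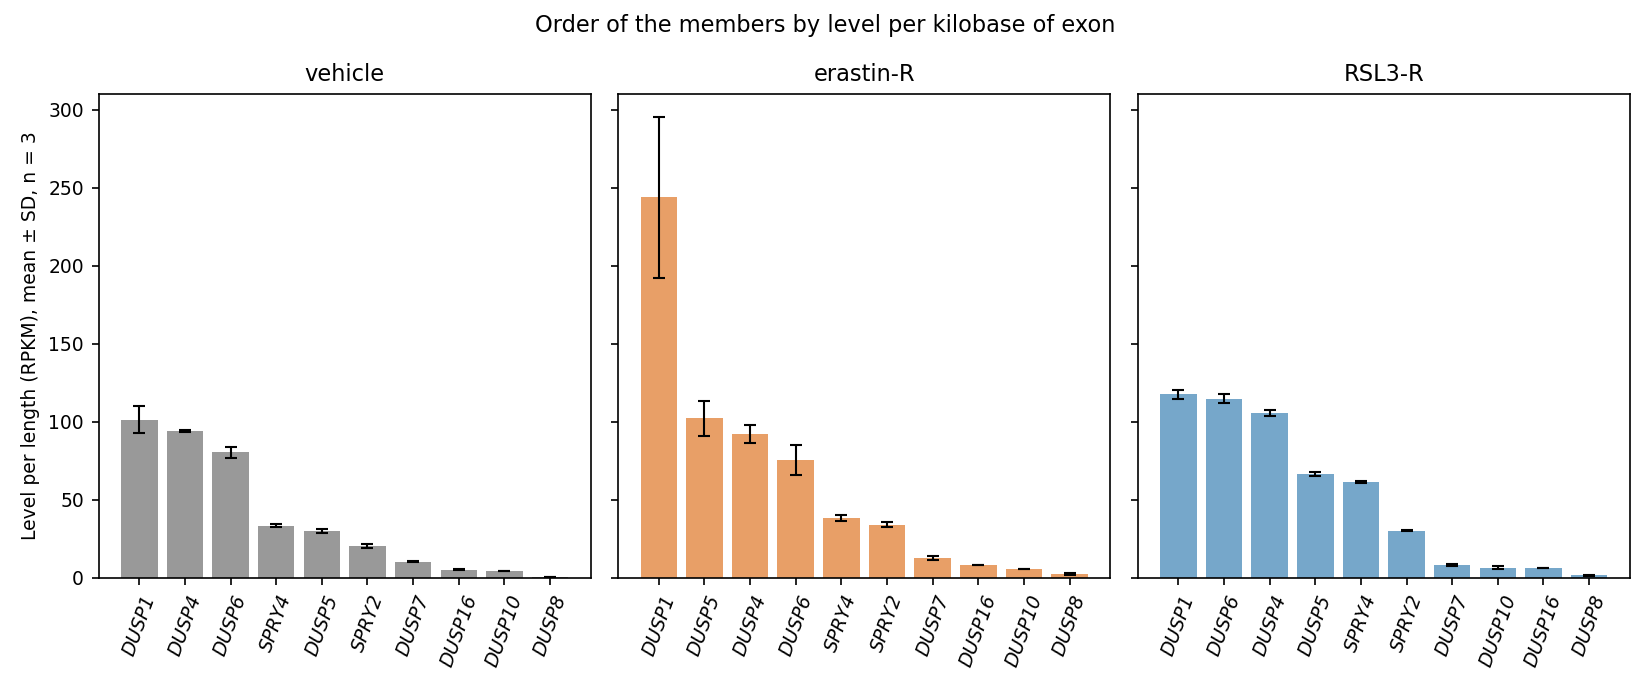
Level per kilobase of exon (RPKM, linear axis from 0) of the 10 genes in each group, ordered from highest to lowest; bars are means and error bars the SD of 3 libraries. DUSP1 had the highest mean in every group, at 101 RPKM in vehicle, 244 RPKM in erastin-R cells and 118 RPKM in RSL3-R cells, but its library range overlapped that of DUSP4 in vehicle and that of DUSP6 in RSL3-R cells. The order depends on the lengths used, which are all exon bases of each gene.

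Other negative regulators of the same pathways formed a list of 9 genes, of which 7 were tested, and DUSP9 and SPRY3 were not. In erastin-R cells 1 was higher and 2 were lower, and in RSL3-R cells 2 were higher and 2 lower, with medians of -0.06 and 0.11 on the log2 scale. These counts stand beside the shares of all genes called, 27.1% higher and 26.8% lower in the erastin-R comparison and 23.8% and 24.9% in the RSL3-R comparison. ERRFI1, an inhibitor of the EGF receptor, rose from 619 CPM in vehicle to 1159 CPM in erastin-R cells (log2 value 0.90, adjusted p = 9.95e-09) and to 1368 CPM in RSL3-R cells (1.14, adjusted p = 7.80e-10). SPRY1, another Sprouty gene, was called lower than vehicle in both treated groups, with log2 values of -0.23 (erastin-R) and -0.67 (RSL3-R).

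Of 15 genes known as transcriptional outputs of ERK, 7 were higher and 4 lower in erastin-R cells, and 10 were higher and 2 lower in RSL3-R cells, with medians of -0.06 and 0.52. Among all genes 27.1% were called higher and 26.8% lower in the first comparison, and 23.8% and 24.9% in the second. EGR1, an immediate early transcription factor, was higher in both (log2 fold changes 1.55 and 1.82). MYC (1.56 and 0.64) and the EGF receptor ligand AREG (1.32 and 0.82) were also higher in both. The study displays both as genes picked from the same libraries, so they are likewise not independent evidence. CCND1, which encodes cyclin D1, fell from 479 CPM in vehicle to 231 CPM in erastin-R cells (adjusted p = 2.71e-09) and to 374 CPM in RSL3-R cells (adjusted p = 5.24e-05). IER3, an early response gene, was higher in both treated groups (0.86 and 1.31). The other genes called lower were ETV1 (-0.42), FOS (-0.42) and HBEGF (-0.35) in erastin-R cells and ETV4 (-0.61) in RSL3-R cells. HBEGF was higher in RSL3-R cells (0.77). In the direct comparison 9 of the 15 were higher and 4 lower in RSL3-R cells, with a median of 0.26, beside 22.3% higher and 26.9% lower among all genes.

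The genes listed for the cascades, which are not all kinases or adaptors and include an inhibitor of RAS, were called in both directions. Of 16 genes of the ERK cascade, 5 were higher and 3 lower in erastin-R cells, and 4 were higher and 8 lower in RSL3-R cells, with medians of -0.05 and -0.13, and the same shares of all genes (27.1% and 26.8%, then 23.8% and 24.9%) stand beside these counts and those of the next list. HRAS, which encodes a RAS GTPase, was the 1 gene of this list past the fold minimum, and its level was 60.2 CPM in vehicle and 30.0 CPM in RSL3-R cells (adjusted p = 2.17e-06). Of 19 genes of the JNK and p38 cascades, 9 were higher and 5 lower in erastin-R cells, and 5 were higher and 6 lower in RSL3-R cells, with medians of 0.12 and -0.05. MAP2K6, which activates p38, was lower in both treated groups, with log2 fold changes of -1.25 and -2.21 from a vehicle level of 3.08 CPM. Its RSL3-R libraries lay at 0.387, 1.18 and 0.409 CPM, not far above the floor of 3 counts. MAPK8IP2, a JNK scaffold, was higher in both (1.70 and 1.48) from a vehicle level of 0.304 CPM, close to the floor of 3 counts. ZFP36, whose protein promotes mRNA decay, was higher in erastin-R cells (1.10), and its value in RSL3-R cells was 0.20 (adjusted p = 0.0707). MAPK13, which encodes a p38 kinase, was higher in both treated groups (0.95 and 1.20). It too was displayed as a gene picked from these libraries.

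**Figure D4:**
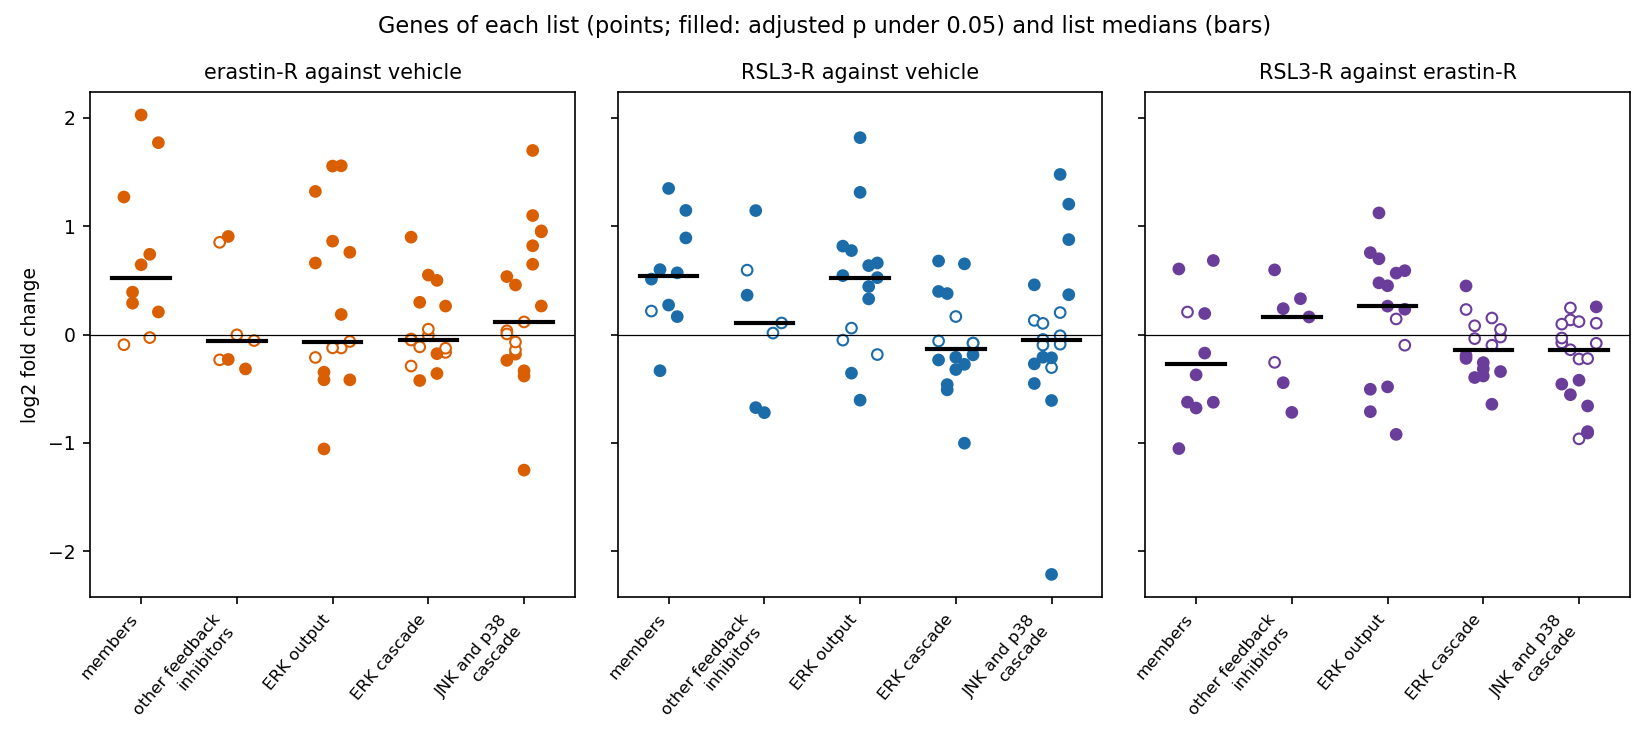
Log2 fold change of each tested gene of the 5 lists (points, filled where the adjusted p was under 0.05) in the 3 comparisons; horizontal bars are list medians. The medians of the 10 feedback genes were 0.52 and 0.54 against vehicle, and the ERK output genes had medians of -0.06 (erastin-R against vehicle) and 0.52 (RSL3-R against vehicle).

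For the 3 genes called with the fold minimum, the protein-coding genes with the most similar profile were found by Pearson's correlation of log2 CPM over the 9 libraries, among 12960 genes. DUSP1 was most like PEX5 (r = 0.998) and LZTS3 (r = 0.997), DUSP5 was most like DGKD (r = 0.999) and SQSTM1 (r = 0.997), and DUSP8 was most like BAIAP3 and CTIF (both r = 0.998). The 9 libraries fall into 3 groups, so that these values mainly describe the order and spacing of the group means.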

How the data were processed

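The 9 RNA libraries of MDA-MB-231 cells were grouped as vehicle, erastin-R and RSL3-R by the treatment in their labels. The submitters' processing notes name HISAT2 2.0.5 and featureCounts 1.5.0-p3, and the strand setting is not given in the sources used here. The authors deposited raw counts per gene, and also deposited FPKM values, which served only as an alternative scale of levels. Gene identifiers, coordinates and exon lengths of the 10 genes equalled those of GENCODE release 29 (GRCh38).

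Counts were normalized (TMM), filtered (filterByExpr) and tested in R 4.3.3 with edgeR 4.0.16, using the quasi-likelihood test in 1 model of all 9 libraries, with Benjamini-Hochberg adjustment over 16188 genes. CPM and RPKM used TMM-scaled library sizes. Genes were called at an adjusted p under 0.05, and also with a minimum absolute log2 fold change of 1. Standard errors derive from the log2 fold change and F statistic. Total counts of 15405102 to 17273464 per library put the floor of 3 counts at 0.174 to 0.195 CPM, which covers counting error only. The between-library coefficient of variation was 8.56%. Exact transcript matches were found with BLAST 2.17.0. For DUSP10 and SPRY2, which have several promoter entries, the first was used. Motifs were chosen after the fold changes were known. The tests were tried on simulated counts.

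The 10 genes, lists and naming rule were chosen with earlier results of these data known. All 10 genes are named. From each list, genes past both thresholds against vehicle are named, up to 4 per comparison. For each of the 10 past both thresholds, the 2 most similar genes were sought among the 12960 tested protein-coding genes outside the 10. SPRY1, ETV1, FOS, HBEGF and ETV4 were named after their values were seen. Alternatives were DESeq2 1.42.0, upper-quartile normalization, no filter, a mean CPM of at least 1, only the 2 groups compared, a replicate block, each library left out, the fold minimum and deposited FPKM. Plots used matplotlib 3.10.9 under Python 3.11.15.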

Additional observations from a re-analysis of the deposited data

Results flagged for a closer look

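DUSP7 departed from vehicle in opposite directions in the treated groups: all 3 erastin-R libraries lay above and all 3 RSL3-R libraries below the vehicle libraries. The difference between the treated groups was tested directly, at -0.62 on the log2 scale for RSL3-R minus erastin-R (edgeR's quasi-likelihood test, adjusted p = 2.07e-05), and it lay between -0.70 and -0.52 over 15 alternatives. Groups of 3 libraries were too small to look for single outlying libraries gene by gene.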

How the results depend on the processing

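Over 15 alternatives the log2 fold changes of the 10 genes in the 3 comparisons gave 450 values, of which 425 kept their direction and their side of an adjusted p of 0.05, 18 lost the call, 6 gained it and 1 changed sign. The change of sign was DUSP4 in erastin-R against vehicle cells, which ranged from -0.058 to 0.022 over the libraries left out in turn and was above 0 without erastin-R replicate 1 only. The lost calls were SPRY2 in RSL3-R against erastin-R cells (13 values) and DUSP4 in RSL3-R against vehicle cells (5). With the fold minimum, the count of genes called higher in erastin-R against vehicle was 3, higher and lower in RSL3-R against vehicle 2 and 0, and higher and lower in RSL3-R against erastin-R 0 and 1. Leaving out libraries in turn, the count called lower in erastin-R against vehicle ranged from 0 to 1 (1 without erastin-R replicate 1, DUSP6), and the count called lower with the fold minimum in RSL3-R against erastin-R ranged from 0 to 1 (0 without erastin-R replicate 2 or 3). The latter was also 0 under upper-quartile normalization, where DUSP1 fell just short of the fold minimum. The causes were not tested. With only 2 libraries of a group left, the fit pools the spread with the other groups. Deposited FPKM moved the level of DUSP4 in vehicle to 93.2 and that of DUSP16 in erastin-R to 8.09, by more than 1 SD.

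The labels number the replicates alike in every group, but deviations of same-numbered libraries from their group means correlated at -0.081 to 0.051, so that the numbers were not taken to pair libraries. With a replicate block, 8 genes were higher than vehicle in each treated group, and 5 rather than 6 were lower in RSL3-R against erastin-R cells, where SPRY2 had an adjusted p of 0.0760.

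At 43 to 48 counts in vehicle, DUSP8 was the least precise of the 10 genes (SE 0.17 to 0.19 on the log2 scale).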
